A study of Homo sapiens with 12 samples.

Results

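The RNAs described here are the abundant features of 22Rv1 prostate cancer cells that stood at least 2-fold higher in hypoxia than in normoxia when no drug was present, and the question is what became of that difference under the eIF4A inhibitor zotatifin. The deposited table lists 60230 features, 1 per line and without names, so each feature is called a line and known by its place in the table, counted from the first line of data. Levels are in CPM, the estimated count divided by its column total and multiplied by 1000000, so that all libraries have the same sum. The lines were chosen by 2 values: a mean of at least 16 CPM over all 12 libraries, which 8760 lines met, and a ratio of at least 2 between the mean of the 3 hypoxia vehicle libraries and the mean of the 3 normoxia vehicle libraries. That left 121 lines, which are 1.38% of the lines of at least 16 CPM. The files do not pair lines with genes, so no line has a gene name, a genome position or a sequence here, and known hypoxia genes could not be looked up.

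22Rv1 is a long-established line of human prostate cancer cells. The 12 libraries form 4 groups of 3: normoxia or hypoxia (1% oxygen), each with vehicle or with zotatifin at 10 nM for 24 h. Neither the solvent of the vehicle groups, whose treatment label reads none, nor the oxygen level of normoxia is stated by the labels. Nothing beyond the word biological in the titles says that replicates were separate cultures, so the p-values measure only how far these samples spread, and that spread may be technical. Wells were kept as 1 set per oxygen level, and oxygen cannot be told apart from anything else that differed between the sets. The labelled cell type was not checked against marker genes, since the lines have no names.

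Cells sense low oxygen mainly through the hypoxia-inducible factors. With oxygen at hand, prolyl hydroxylases mark the alpha subunits of these factors for destruction by the VHL ubiquitin ligase, and when oxygen falls the subunits persist and switch on genes for glucose uptake, glycolysis, blood vessel growth and acid handling. eIF4A is the RNA helicase that opens structured leaders of mRNAs so that ribosomes can scan them, and zotatifin clamps it onto RNA and blocks translation of sensitive messages. The assay here counts RNA, so it shows how much of each RNA was in the pool and not how much was translated. In a bulk sample, more RNA per cell and more cells carrying that RNA cannot be told apart.

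Library totals ran from 10394201 to 16474350 estimated counts and were lower in the hypoxia vehicle than in the normoxia vehicle libraries. Normoxia vehicle replicate 1 stood apart from its group: chi-square per degree of freedom, a measure of disagreement between the counts of a pair, came to 13.7 and 10.7 against the others of that group, which had 4.74 between them. Normoxia zotatifin replicate 3 also stood apart, with 10.7 against replicate 1 and 6.97 against replicate 2, which had 2.89 between them. Hypoxia vehicle replicates 1 and 3 had 8.1. The lowest value of any pair of replicates was 2.89, so none was a repeat of another within sampling noise. The counts and medians of the 121 lines were also computed without each library in turn.

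Most of the 121 lines were measurable already in normoxia. Their mean over all libraries ran from 16.2 to 3638 CPM with a median of 52.8 CPM, beside a median of 47.5 CPM over all 8760 lines of that abundance. In normoxia vehicle cells they stood at a median of 20.1 CPM and in hypoxia vehicle cells at 66.5 CPM. The ratio that chose them had a median of 2.65. It was between 2 and 3 in 78 of the lines, at least 3 in 43, at least 4 in 24, and reached 95.0. In all 121 the 3 hypoxia vehicle libraries lay above the 3 normoxia vehicle libraries, as they did in 24% of the lines of at least 16 CPM, but these are the libraries that chose the lines and nothing is read from that count.

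The lines just inside and just outside the fold minimum differed little. The 3 lowest ratios kept were 2.00, 2.01 and 2.02, and the 3 highest left out were 1.99, 1.98 and 1.97. By abundance, the 3 scarcest lines kept had means of 16.2, 16.3 and 16.7 CPM, and the nearest 3 left out had 15.97, 15.73 and 15.73 CPM. One of those 3 had a vehicle ratio of 11.2 and stayed 8.04-fold higher in hypoxia with zotatifin, while another with a vehicle ratio of 2.03 held 11.9, 11.7 and 13.2 CPM in normoxia and 11.3, 13.0 and 10.7 CPM in hypoxia with the drug. The abundance minimum thus left out a line with a kept difference and one whose libraries overlapped.

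As a share of the whole library, the 121 lines took up 0.878% ± 0.015 of all counts in normoxia vehicle cells and 2.65% ± 0.087 in hypoxia vehicle cells (SD, n = 3). With zotatifin they took up 0.899% ± 0.021 in normoxia and 2.27% ± 0.056 in hypoxia. The lowest hypoxia library with the drug held 2.20% and the highest normoxia library with the drug held 0.923%, so the groups lay far apart in the drug arm too, which did not choose the lines by their fold. The most abundant line alone supplied 21.7% of the summed CPM and the 5 most abundant supplied 48.2%, so this share speaks mostly for a few lines.

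**Figure D1:**
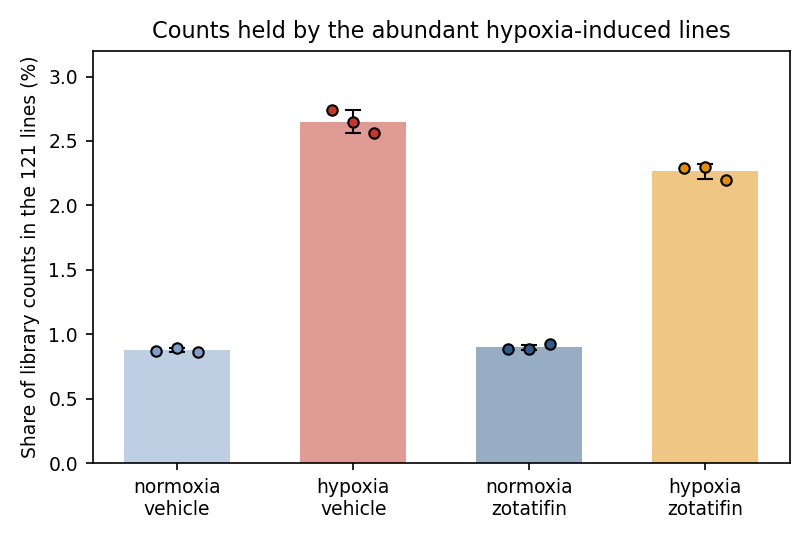
Share of each library's counts (y axis, percent) held by the 121 lines in the 4 groups (x axis); points are libraries, bars are means and error bars are SD over 3 libraries. Both hypoxia groups sit above both normoxia groups, at 2.65% and 2.27% against 0.878% and 0.899%.

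The 6 zotatifin libraries can answer whether the difference held with the drug, because they entered the choice only through the abundance minimum. That minimum still favours lines that are high in a zotatifin group. All 121 lines passed the filter on low counts and were tested. In hypoxia with zotatifin 118 of them rose, 1 fell and 2 were not called (edgeR quasi-likelihood test, adjusted p under 0.05 over all 17993 lines tested). That is 97.5% of the 121 called higher, where 20.3% of all tested lines and 21.9% of lines of at least 16 CPM were called higher. With 16 CPM asked of the vehicle columns alone, 112 lines were chosen. Of these, 108 were called higher and 69 had a ratio of at least 2 with zotatifin. In either direction 42.7% of all tested lines were called, and 35.8% of lines of at least 16 CPM were called lower. Over all tested lines 3650 were called higher and 4036 lower with TMM scaling, and 4346 higher and 3295 lower with upper quartile scaling, so which direction had more calls depended on the scaling. The 3 hypoxia zotatifin libraries lay wholly above the 3 normoxia zotatifin libraries in 119 of the 121 lines (98.3%), against 29.7% of lines of that abundance.

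The difference was smaller with the drug in most of the lines. The ratio of hypoxia to normoxia with zotatifin was at least 2 in 73 of the 121 lines (60.3%), where 1.15% of lines of at least 16 CPM reached it. It was between 1.5 and 2 in 36 lines, between 1 and 1.5 in 10, and under 1 in 2. The median was 1.12 on the log2 scale, against 1.41 with vehicle and against -0.02 over all lines of that abundance with the drug. In 101 of the 121 lines the ratio was smaller with zotatifin than with vehicle, and in 20 it was larger.

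Since high vehicle ratios chose the lines, some shortfall is built into the choice. The lines were therefore chosen again with the vehicle libraries of 1 replicate number left out, and the vehicle ratio was read from the left-out libraries alone. For numbers 1, 2 and 3 this chose 112, 131 and 135 lines, with median log2 vehicle ratios of 1.60, 1.34 and 1.29 in the left-out libraries and median log2 zotatifin ratios of 1.13, 1.07 and 1.06. The zotatifin ratio was the smaller in 84.8%, 77.9% and 77.8% of the lines. The shortfall was thus present in all 3 readings, each of which rests on 1 library per oxygen level for the vehicle arm.

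Lines that stood out more with vehicle also stood out more with the drug. Of the 43 lines with a vehicle ratio of at least 3, 40 kept a ratio of at least 2 with zotatifin, and of the 78 lines between 2 and 3, 33 did. All 24 lines with a vehicle ratio of at least 4 were called higher with zotatifin, but so were 118 of all 121, and nothing is read from those calls. A ratio of at least 4 was kept with zotatifin by 16 of the 24, where 17 of all 121 lines reached it. Across the 121 lines the log2 ratios of the drug arms, which share no libraries, had a Pearson r of 0.83 and a Spearman rho of 0.61. This is a description across lines, which are not independent replicates, and the vehicle ratio has a floor set by the choice.

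**Figure D2:**
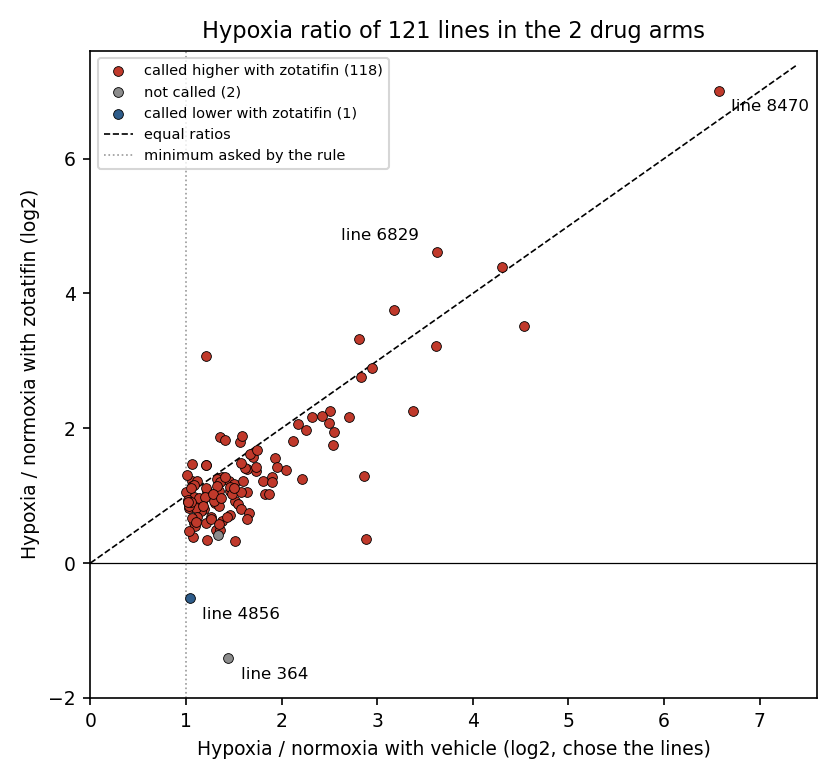
Log2 ratio of hypoxia to normoxia with vehicle (x axis, the value that chose the lines) against the same ratio with zotatifin (y axis), 1 point per line, coloured by the edgeR call in the zotatifin arm. Most points lie above 0 and under the dashed line of equal ratios, and the 2 points below 0 are lines 364 and 4856.

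The share of lines that kept a 2-fold difference was counted by abundance. The ratio with zotatifin was at least 2 in 22 of the 46 lines from 16 to 32 CPM, in 14 of the 25 from 32 to 64 CPM, in 28 of the 39 from 64 to 256 CPM, and in 9 of the 11 above 256 CPM. Called higher were 44, 24, 39 and 11 of these. The 3 lines not called higher all had a mean under 64 CPM, as did most of the 121 (median 52.8 CPM), so nothing is read from that. Shares called over all lines of each band were not counted. The hypoxia zotatifin libraries enter both the mean and the ratio, so a high value there raises both by construction. The standard errors (SE) given here were derived from the test, as the absolute log2 fold change over the square root of its F value. They had a median of 0.08 and reached 0.65.

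**Figure D3:**
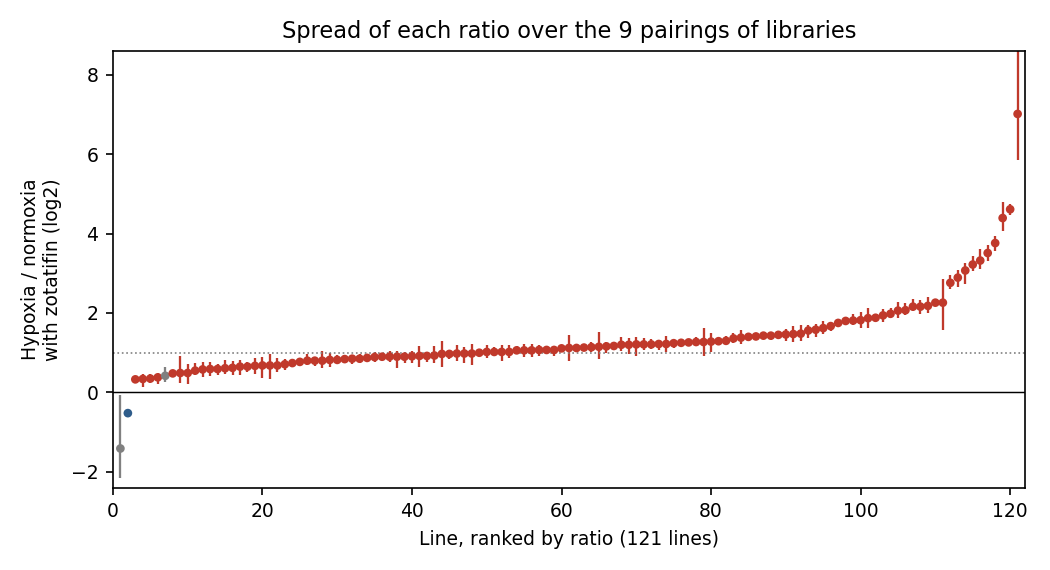
Log2 ratio of hypoxia to normoxia with zotatifin for the 121 lines in rank order (x axis); points are ratios of group means and bars span the lowest to the highest of the 9 pairings of 1 hypoxia with 1 normoxia library, red for called higher, grey for not called and blue for called lower. The bar of the top line, 8470, runs off the axis because 1 normoxia library lists it at 0; 119 bars lie wholly above 0 and 73 points lie on or above the dotted line at 1.

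Line 8470 had the largest difference in both arms. Its hypoxia vehicle libraries held 65.3, 56.9 and 61.7 CPM and its normoxia vehicle libraries 0.369, 0.959 and 0.607 CPM. With zotatifin it stood at 33.8, 34.8 and 33.7 CPM in hypoxia and at 0.211, 0 and 0.584 CPM in normoxia. The groups were far apart in both arms, and the hypoxia level with the drug was 0.557 of that with vehicle. The log2 fold change with zotatifin was 6.94 (SE 0.24, adjusted p = 8.23e-16 by edgeR). Since the normoxia zotatifin libraries hold only 12 counts in all, its size moved from 6.33 to 8.26 over the alternatives, far more than that SE.

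Line 6829 had the next largest difference with zotatifin and went the other way with the drug. It held 1.60, 2.56 and 1.88 CPM in normoxia vehicle cells and 23.7, 23.9 and 26.7 CPM in hypoxia vehicle cells. With zotatifin it held 3.93, 3.37 and 3.57 CPM in normoxia and 90.8, 88.2 and 86.6 CPM in hypoxia. All 3 hypoxia zotatifin libraries were the highest of the 12, 3.57 times the hypoxia vehicle mean. The log2 fold change of hypoxia against normoxia with zotatifin was 4.57 (SE 0.10, adjusted p = 3.27e-26 by edgeR). Only through its hypoxia zotatifin libraries did the line pass the abundance minimum. Its means in normoxia vehicle, hypoxia vehicle and normoxia zotatifin cells were 2.01, 24.8 and 3.62 CPM. The p-value therefore rests on libraries that admitted the line and is not independent of the choice.

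Line 4856 is the single line called lower in hypoxia with zotatifin. Its levels were 12.2, 11.1 and 16.8 CPM in normoxia vehicle cells and 28.3, 28.1 and 26.1 CPM in hypoxia vehicle cells. With zotatifin it held 45.6, 47.6 and 49.7 CPM in normoxia and 32.4, 34.3 and 33.0 CPM in hypoxia. The drug groups did not overlap and the order of the oxygen conditions was turned round, with normoxia zotatifin cells highest of the 4 groups. The log2 fold change was -0.56 (SE 0.09, adjusted p = 5.03e-06 by edgeR). Its vehicle ratio of 2.05 lay near the minimum, and without normoxia vehicle replicate 1 or 2 it was no longer chosen.

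Line 364 had the lowest ratio with zotatifin, and its values were uneven between replicates. Its hypoxia vehicle libraries held 12.2, 12.1 and 46.3 CPM against 8.39, 8.25 and 9.35 CPM in normoxia vehicle cells, so that replicate 3 alone brought it over the fold minimum. With zotatifin it held 24.2, 10.0 and 37.1 CPM in normoxia and 8.35, 8.93 and 9.58 CPM in hypoxia. The drug groups did not overlap, but the log2 fold change of -1.44 (SE 0.65) was not called (adjusted p = 0.112 by edgeR). It was called without hypoxia vehicle replicate 3 (adjusted p = 0.0306 by edgeR) and by DESeq2 (adjusted p = 0.0446), with the same log2 fold change of -1.44. Line 364 was not chosen without hypoxia vehicle replicate 3, nor without normoxia zotatifin replicate 1 or 3, where its mean fell under 16 CPM.

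**Figure D4:**
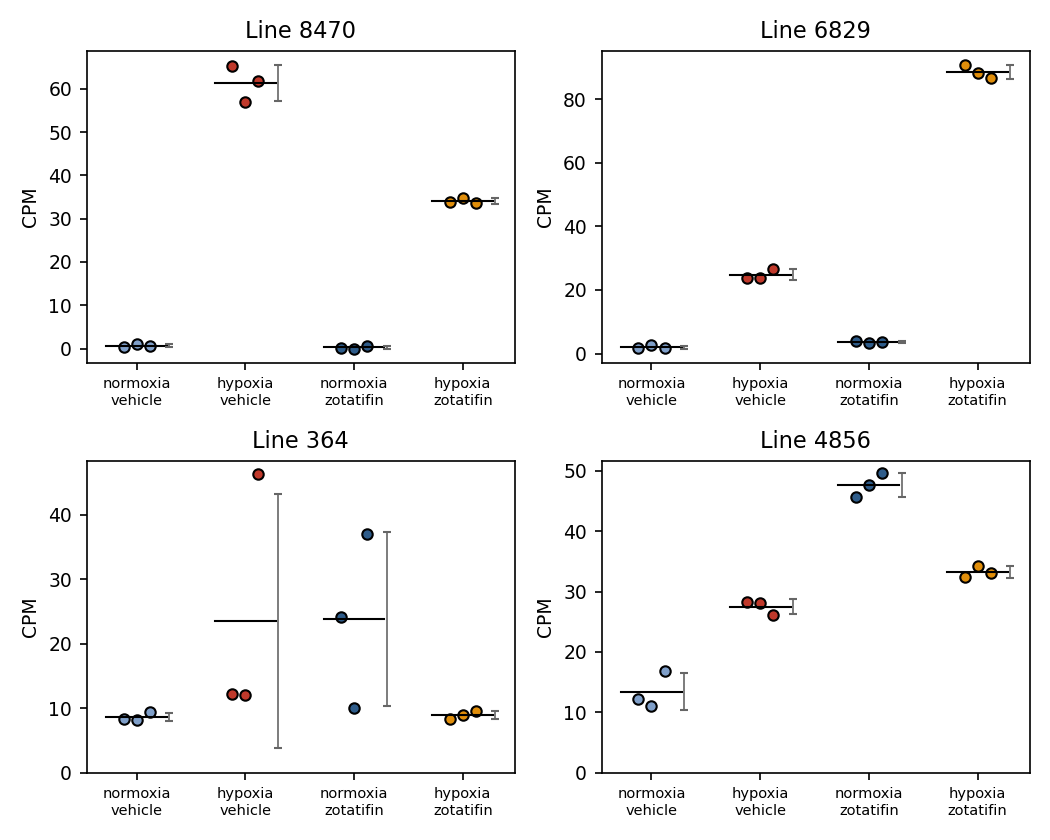
CPM (y axis) of lines 8470, 6829, 364 and 4856 in the 4 groups (x axis); points are libraries, horizontal bars are means and the grey bars beside them are SD over 3 libraries. Lines 8470 and 6829 are high in both hypoxia groups, line 4856 is highest in normoxia with zotatifin, and line 364 has 1 hypoxia vehicle library at 46.3 CPM.

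The other line without a call had a log2 fold change of 0.38 with zotatifin (SE 0.21, adjusted p = 0.194 by edgeR). It held 34.2, 40.1 and 35.2 CPM in hypoxia and 28.4, 27.7 and 25.9 CPM in normoxia with the drug, which do not overlap. Its 3 normoxia vehicle libraries were spread, at 36.6, 24.4 and 19.2 CPM, with replicate 1 highest, and the fit shares 1 estimate of the spread over all groups. It is the neighbour in the table of another of the 121 lines, and that line was spread in the same order in normoxia vehicle cells (116, 94.9 and 70.0 CPM) and was called higher with a log2 fold change of 0.64 (SE 0.18, adjusted p = 0.0198 by edgeR).

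The 3 most abundant of the 121 lines were measured with small standard errors. The first held 2404.9, 2274.4 and 2194.3 CPM in normoxia vehicle cells and 6584.1, 6287.1 and 6091.9 CPM in hypoxia vehicle cells. With zotatifin it held 1826.4, 1865.3 and 1889.0 CPM in normoxia and 4052.0, 4213.1 and 3973.7 CPM in hypoxia. The fitted difference with the drug was 1.09 on the log2 scale (SE 0.04, adjusted p = 4.2e-20 by edgeR). Its ratio of 2.76 with vehicle was thus 2.19 with the drug, with levels under those of vehicle in both oxygen conditions.

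The second most abundant line kept its full level in hypoxia. Its hypoxia means were 2361 ± 71.8 CPM with vehicle and 2418 ± 76.1 CPM with zotatifin, and its normoxia libraries held 798.2, 810.7 and 790.4 CPM with vehicle and 692.1, 689.6 and 703.1 CPM with zotatifin (SD, n = 3). The ratio was 2.95 with vehicle and 3.48 with zotatifin (log2 fold change 1.76, SE 0.04, adjusted p = 7.59e-27 by edgeR). The third went from 644 ± 33.9 to 2014 ± 62.7 CPM with vehicle and from 562 ± 19.4 to 1482 ± 55.5 CPM with the drug (log2 fold change 1.36, SE 0.04, adjusted p = 1.78e-23 by edgeR). All 3 were therefore higher in hypoxia in both arms, and they differ in whether the hypoxia level with zotatifin reached that with vehicle.

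After line 8470, the largest vehicle ratios were 23.0 and 19.7. The line with 23.0 held 232, 206 and 216 CPM in hypoxia vehicle cells against 9.46 ± 0.830 CPM in normoxia. With zotatifin it held 116, 118 and 108 CPM in hypoxia and 10.0 ± 0.968 CPM in normoxia (log2 fold change 3.47, SE 0.07, adjusted p = 2.13e-27 by edgeR). The line with 19.7 stood at 69.7 ± 6.61 CPM in hypoxia vehicle and 39.0 ± 0.501 CPM in hypoxia zotatifin cells, with 3.53 ± 0.222 and 1.86 ± 0.443 CPM in normoxia (log2 fold change with zotatifin 4.35, SE 0.13, adjusted p = 5.4e-23 by edgeR). Both lines, like 8470, had a hypoxia level with the drug near 0.5 of that with vehicle, and a difference between oxygen conditions that was still over 10-fold.

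The comparison of zotatifin with vehicle at each oxygen level shares the vehicle libraries that chose the lines. A choice of high hypoxia vehicle and low normoxia vehicle values pulls the drug ratio down in hypoxia and up in normoxia. The abundance minimum includes the zotatifin libraries, so it favours lines raised by the drug and pulls both ratios up. These ratios are therefore given as levels, without a test. In hypoxia 58 lines had a higher mean with zotatifin and 63 a lower mean, and the median log2 ratio was -0.03. In normoxia 82 were higher and 39 lower, with a median of 0.28. Read from vehicle libraries left out of the choice, the medians were -0.17, -0.06 and 0.08 in hypoxia and 0.32, 0.20 and 0.35 in normoxia. The direction in hypoxia was thus not settled and that in normoxia was upward in all 3 readings. These readings kept the zotatifin libraries in the abundance minimum. With 16 CPM asked of the vehicle columns alone, and no vehicle library left out, the medians were -0.24 in hypoxia and 0.21 in normoxia.

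Most of the lines stayed within 2-fold of vehicle under the drug, 100 of 121 in hypoxia and 99 of 121 in normoxia. In hypoxia 14 (11.6%) had a ratio of zotatifin to vehicle of 2 or more, where 4.94% of lines of at least 16 CPM did, and 7 (5.79%) stood at 0.5 or less, where 4.5% did. In normoxia 20 (16.5%) had 2 or more against 3.03% of lines of that abundance, and 2 (1.65%) stood at 0.5 or less against 3.45%. With the vehicle level read from left-out libraries, 11, 14 and 20 lines reached a ratio of 2 in hypoxia and 27, 20 and 24 in normoxia. The abundance minimum averages the zotatifin libraries too, so it favours lines raised by the drug. One line counted at both oxygen levels had vehicle means of only 2.02 CPM in normoxia and 14.3 CPM in hypoxia. How far the minimum adds to these counts was not tested. The drug ratios pointed the same way at both oxygen levels in most lines: 54 had higher means with zotatifin in both, 35 lower means in both, 28 were lower in hypoxia and higher in normoxia, and 4 the reverse. With the libraries of each pair of groups not overlapping, 11 lines were lower in hypoxia and higher in normoxia, a pattern of 1.76% of the lines of at least 16 CPM, and 1 line had the reverse, a pattern of 1.31%. The choice of high hypoxia vehicle and low normoxia vehicle values favours the first of these patterns, so nothing is read from the counts.

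**Figure D5:**
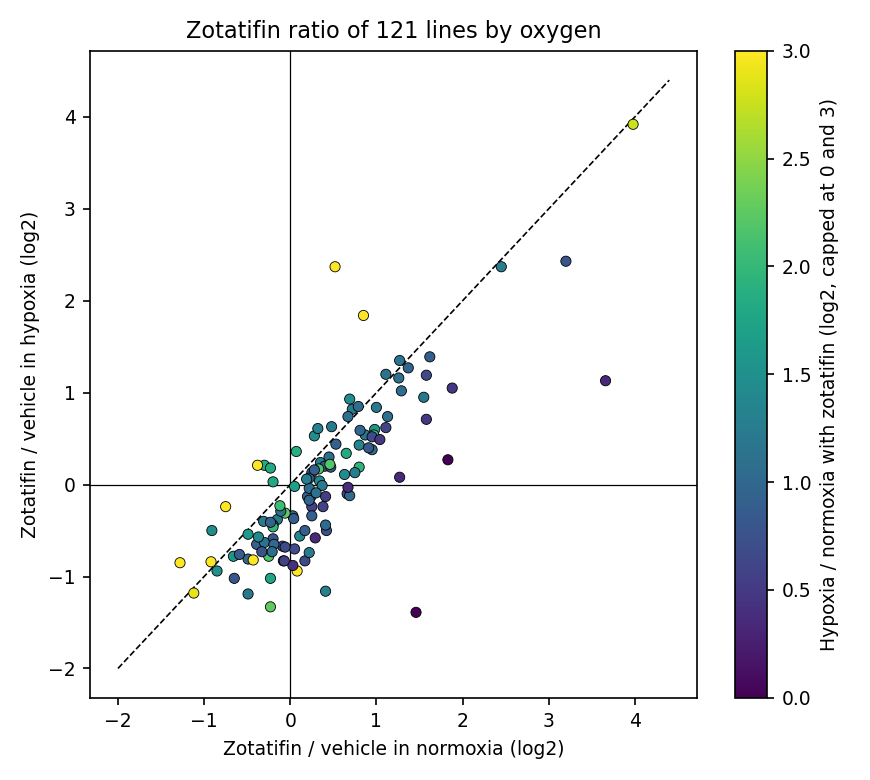
Log2 ratio of zotatifin to vehicle in normoxia (x axis) and in hypoxia (y axis) for the 121 lines, coloured by the log2 ratio of hypoxia to normoxia with zotatifin; the dashed line marks equal drug ratios. Most lines lie within 1 of 0 on both axes, 12 lie at or above 1 on both, and darker points lie to the right of the dashed line.

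By the group with the highest mean, the 121 lines fell mainly into 2 kinds. Hypoxia vehicle cells were highest in 62 lines and hypoxia zotatifin cells in 57. Normoxia zotatifin cells were highest in 2. Normoxia vehicle cells could not be highest under the rule, and the count for hypoxia vehicle cells draws on the values that chose the lines. The 3 hypoxia zotatifin libraries lay above the 3 normoxia vehicle libraries in 119 of the 121 lines, as they did in 39.4% of the lines of at least 16 CPM. Low normoxia vehicle values were part of the choice, so nothing is read from that count.

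At both oxygen levels, 12 lines had a ratio of zotatifin to vehicle of at least 2. In the extreme line, normoxia vehicle libraries held 2.46, 1.53 and 2.06 CPM and hypoxia vehicle libraries 15.1, 14.2 and 13.6 CPM. Normoxia zotatifin libraries held 33.0, 29.9 and 33.0 CPM and hypoxia zotatifin libraries 231.0, 200.4 and 216.7 CPM. Low oxygen and the drug thus each went with a higher level, and the level was highest with both. Its oxygen ratio was 7.09 with vehicle and 6.76 with the drug (log2 fold change 2.72, SE 0.07, adjusted p = 3.31e-25 by edgeR). Its vehicle means, 2.02 CPM in normoxia and 14.3 CPM in hypoxia, both lay under 16 CPM. It therefore passed the abundance minimum through the zotatifin libraries that were tested, and the p-value is not independent of the choice.

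The lines with the next highest drug ratios in normoxia kept a smaller oxygen difference. One had vehicle means of 1.93 ± 0.577 CPM in normoxia and 14.2 ± 0.976 CPM in hypoxia, and zotatifin means of 24.4 ± 1.51 CPM in normoxia and 31.1 ± 0.644 CPM in hypoxia (SD, n = 3). Its oxygen ratio was 7.34 with vehicle and 1.28 with the drug (log2 fold change 0.32, SE 0.10, adjusted p = 0.00998 by edgeR). Both of its vehicle means lay under 16 CPM, so it passed the abundance minimum through the zotatifin libraries that were tested. Another had means of 7.39 ± 2.01, 22.0 ± 1.40, 67.9 ± 3.97 and 118.4 ± 5.37 CPM in the same order, with ratios of 2.98 and 1.74. In both lines the normoxia level with the drug was above the hypoxia level with vehicle. Of the 20 lines at least 2-fold higher with zotatifin in normoxia, 18 were still called higher in hypoxia with the drug and 8 kept a ratio of at least 2. Of the other 101 lines, 65 did. The normoxia zotatifin libraries enter both measures, so a high value there raises the one and lowers the other by construction, and no test is given.

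A separate line was high mainly in the combination. Its hypoxia zotatifin libraries held 283.4, 278.7 and 226.1 CPM, against 57.0, 49.9 and 45.6 CPM in hypoxia with vehicle. Its normoxia libraries held 16.9, 26.3 and 22.6 CPM with vehicle and 30.6, 29.6 and 34.0 CPM with zotatifin. Its oxygen ratio was 2.32 with vehicle and 8.37 with the drug (log2 fold change 3.03, SE 0.13, adjusted p = 3.74e-08 by edgeR). In the plot of the drug arms it is the point highest above the line of equal ratios near the fold minimum.

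At the other end, 7 lines had a hypoxia level with zotatifin of at most 0.5 of that with vehicle. One is line 364. The other 6 were all called higher in hypoxia with the drug. The lowest ratio of these 6 was 0.398, in a line with hypoxia means of 44.1 ± 2.33 CPM with vehicle and 17.5 ± 2.91 CPM with zotatifin. Its normoxia means were 4.27 ± 0.702 and 3.65 ± 1.05 CPM, which makes an oxygen ratio of 10.3 with vehicle and 4.80 with zotatifin. A more abundant one held 973, 949 and 910 CPM in hypoxia vehicle and 459, 481 and 454 CPM in hypoxia zotatifin cells, with normoxia means of 162 ± 21.7 and 138.5 ± 4.22 CPM. Its oxygen ratio was 5.82 with vehicle and 3.36 with zotatifin (log2 fold change 1.71, SE 0.06, adjusted p = 1.17e-16 by edgeR). Of all the chosen lines, 97.5% were called higher in hypoxia with zotatifin, so nothing is read from the calls of these 6.

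The lowest drug ratio in normoxia was that of line 8470, at 0.411, whose normoxia levels were near 0 in both arms. A line with 0.461 had normoxia means of 10.7 ± 1.52 CPM with vehicle and 4.94 ± 0.587 CPM with zotatifin. Its hypoxia means were 82.8 ± 5.58 and 36.7 ± 1.75 CPM, which left its oxygen ratio at 7.73 with vehicle and 7.43 with zotatifin. The third was the line with the vehicle ratio of 19.7, at 0.527. A low normoxia zotatifin level lowers this ratio and raises the oxygen ratio with the drug by construction.

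Measures that did not choose the lines were set beside those of all lines of at least 16 CPM. The coefficient of variation between the 3 hypoxia zotatifin libraries had a median of 4.70% in the 121 lines and 4.56% in all lines of that abundance, and in normoxia zotatifin libraries 5.66% and 4.76%. Values that were not whole to within 0.0005, as arise when reads are shared between similar transcripts, made up 52.2% of the values above 0 in the 121 lines and 53.2% in the 8760. In the table, 90.9% of the 121 lines stood among the first 20000 lines, as did 91.7% of the 8760. In all, 6 of the 121 were next to another of them, in 3 pairs. None of these differences was tested.

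Looked at from the drug arm, 101 lines of at least 16 CPM were at least 2-fold higher in hypoxia with zotatifin, and 73 of them (72.3%) are among the 121. The 28 others had vehicle ratios from 0.589 to 1.98 with a median of 1.52, and 3 of them were under 1. The opposite set, 105 lines of at least 16 CPM that were at most 0.5 as high in hypoxia with vehicle, was followed in the same way. With zotatifin 102 (97.1%) were called lower and 1 higher, where 35.8% of lines of that abundance were called lower and 21.9% higher. In 73 (69.5%) the level with zotatifin was still at most 0.5 as high in hypoxia. That share was not counted over all lines of that abundance, whose log2 ratios with zotatifin had a lower quartile of -0.23. The difference between those sets was not tested.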

How the data were processed

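RNA was sequenced from 12 libraries of 22Rv1 cells in 4 groups of 3; per the labels' protocols, RNA was taken up in Trizol after trypsinization and libraries came from the stranded SMARTer kit for total RNA. The deposited values are estimated counts per line in 12 columns, not scaled to a common total; the submitters' processing notes name Salmon, DESeq, DESeq2 and hg38 but no versions or roles, and no source used here states the annotation. Reads of near-identical transcripts may be divided between lines. Estimated counts were rounded for the test. Of 60230 lines, 17993 passed edgeR's filterByExpr (minimum count 10, minimum total 15). The test was edgeR's quasi-likelihood test (4.0.16, R 4.3.3; robust, TMM factors, 4 group means, all 12 libraries, 8 residual degrees of freedom), two-sided, with Benjamini-Hochberg adjustment over all lines tested. It was checked on simulated counts. CPM, ratios and SD used column totals. Fold changes used TMM, and each SE is the absolute log2 fold change over the square root of the test's F value. Replicate numbers did not pair the libraries (correlation of same-numbered deviations at most 0.036).

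The lines and the rule for those described were chosen with earlier results of these data known. Printed by number are the highest and lowest 2 fitted fold changes with zotatifin; described by value are the extremes of abundance, vehicle ratio and drug ratio and those nearest the thresholds, while the remaining lines described (the neighbour of a line without a call, and the abundant one among the 7) were picked after their values were seen. Alternatives were DESeq2 (1.42.0), limma-voom (3.58.1), other scalings, filters, thresholds and leaving out each library.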

Additional observations from a re-analysis of the deposited data

Results flagged for a closer look

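Lines 364 and 4856 were higher in every hypoxia library than in every normoxia library with vehicle, and lower in every one with zotatifin. Their log2 ratios with zotatifin were -1.41 and -0.52, against 1.44 and 1.04 with vehicle. The vehicle direction was fixed by the choice and the difference between the arms was not tested. Line 364 was not chosen without hypoxia vehicle replicate 3 (46.3 CPM), nor without normoxia zotatifin replicate 1 or 3. Its other hypoxia vehicle libraries, at 12.2 and 12.1 CPM, still lay above the highest normoxia vehicle library, at 9.35 CPM. Normoxia zotatifin replicate 2, at 10.0 CPM, lay just above the highest hypoxia zotatifin library, at 9.58 CPM.

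Between the oxygen conditions, 11 of the 121 lines had every zotatifin library below every vehicle library in hypoxia and above every one in normoxia, and 1 line had the reverse. Over all lines of at least 16 CPM these patterns made up 1.76% and 1.31%. The vehicle libraries that chose the lines enter both, and the difference was not tested.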

How the results depend on the processing

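The count of lines called higher with zotatifin was 118, and 118 with the replicate number as a block (replicate block), where 7720 lines were called in all against 7686. Leaving out 1 library and choosing again gave 117 to 133 lines, of which 95.8% to 99.2% were called higher. The number chosen also depended on the scaling. With TMM-scaled totals 104 lines were chosen, 102 of them called higher and 62 with a zotatifin ratio of at least 2. Relative log expression factors gave 110, 108 and 65, and upper quartile factors 130, 126 and 76, in the same order. Other minimums moved the numbers as follows: at 8 CPM 194 lines with 181 called higher, at 32 CPM 75 with 74, at a fold of 1.5 363 with 304, and at a fold of 3 43 with 43, of which 40 kept a ratio of at least 2. The median log2 oxygen ratio with zotatifin was 0.63 at a fold of 1.5 and 1.67 at a fold of 3, and 1.06 to 1.14 in the other settings. The median log2 drug ratio in hypoxia, -0.03, was -0.14 with relative log expression factors, -0.13 with TMM, -0.24 with 16 CPM asked of the vehicle columns alone, -0.24 at a fold of 3, -0.17 and 0.08 with vehicle libraries 1 and 3 held out, and -0.13 to -0.00 with 1 library left out, the lowest without normoxia vehicle replicate 1. That in normoxia, 0.28, was 0.19 with TMM, 0.17 at a fold of 3 and 0.20 with vehicle libraries 2 held out. The cause of these shifts was not tested. Line 364 was called by DESeq2 and without hypoxia vehicle replicate 3. Depth limits line 8470 most, with 12 normoxia counts in the drug arm.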
